A study of Rattus norvegicus with 12 samples.

Results

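Sural-SNI is a spared nerve injury of the rat in which the common peroneal and tibial branches of the sciatic nerve were ligated and cut and the sural branch was left intact. It was compared with Sham surgery, in which the nerve was exposed and no branch was cut, in dorsal root ganglia (DRG) of adult male Sprague-Dawley rats at Day 23. The comparison used 8 of the 12 microarrays of the study: 4 of Sural-SNI and 4 of Sham, and in each group replicates 1 and 2 of L3-DRG and replicates 1 and 2 of L4-DRG, chosen by their labels. The other 4 arrays, of Tibial-SNI (the tibial branch spared and the other branches cut), were used only where a miR was set against that injury. RNA came from single DRG of perfused animals, and all 154 miRs of the deposited table entered the comparisons below.

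A microRNA (miR) is a short RNA that pairs with messenger RNAs, mainly through its seed, bases 2 to 8 from the 5′ end, and lowers their stability or translation. A DRG holds the cell bodies of sensory neurons, whose axons run in the peripheral nerve, together with satellite glia, Schwann cells, blood vessels and immune cells. The sciatic nerve of the rat draws more of its fibers from L4-DRG than from L3-DRG, and spared nerve injury is a widely used model of lasting neuropathic pain.

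The sequences below are those of the miRs on which the comparison turns, in 3 sets, with the seed in capitals. They are the mature rat sequences of RefSeq, with positions in the GRCr8 build, and all 28 assays looked up had an entry. For assays whose name gives no arm, the arm that carried the plain name in older nomenclature was taken.

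The first set holds the miRs that were higher in Sural-SNI than in Sham in 4 of 4 pairs of arrays with an unadjusted p under 0.05.
miR-325: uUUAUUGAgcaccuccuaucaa
miR-130a: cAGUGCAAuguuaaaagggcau
miR-19a: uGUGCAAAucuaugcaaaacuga
miR-222: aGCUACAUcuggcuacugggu
miR-200c: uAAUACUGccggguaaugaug
miR-142-3p: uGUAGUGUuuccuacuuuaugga
miR-431: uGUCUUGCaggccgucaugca
miR-340-5p: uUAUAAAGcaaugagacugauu

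These 8 miRs had 8 different seeds. MiR-325 lies at chrX:74523537-74523558 on the minus strand, inside a long noncoding RNA gene, and miR-222 at chrX:6022682-6022702 on the plus strand, also inside noncoding RNA genes. MiR-142-3p (chr10:73055155-73055177, plus strand) overlaps Tspoap1, and miR-340-5p (chr10:34894668-34894689, plus strand) overlaps Rnf130. MiR-431 (chr6:134326468-134326488, plus strand) overlaps Rtl1 in the imprinted Dlk1-Dio3 region. No overlapping gene was listed for miR-130a (chr3:90229240-90229261, minus strand), miR-19a (chr15:98588179-98588201, plus strand) or miR-200c (chr4:159209969-159209989, minus strand).

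The second set holds miR-133b, which was lower in Sural-SNI in 4 of 4 pairs, and relatives that share a seed with a miR of the comparison, shown because members of a seed family can be set side by side.
miR-133b: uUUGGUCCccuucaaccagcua
miR-19b: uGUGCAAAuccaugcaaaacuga
miR-130b: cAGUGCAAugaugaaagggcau
miR-16: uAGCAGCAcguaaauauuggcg
miR-15b: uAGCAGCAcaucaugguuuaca
miR-17: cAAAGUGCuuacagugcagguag
miR-20b: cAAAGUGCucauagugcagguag

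MiR-133b is at chr9:30594629-30594650 on the plus strand. MiR-19a and miR-19b differ by U11C, counted from the 5′ end of miR-19a. The mature miR-17 sequence is listed at 2 loci, Mir17 (chr15:98587861-98587883, plus strand) and Mir106a (chrX:137343615-137343637, minus strand), so in the rat the miR-17 assay cannot tell these loci apart.

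The third set holds the miRs whose Sural-SNI minus Sham difference had the smallest p between L4-DRG and L3-DRG.
miR-34a: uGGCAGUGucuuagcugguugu
miR-127: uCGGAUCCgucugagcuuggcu
miR-183: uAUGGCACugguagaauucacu

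MiR-34a is at chr5:165815971-165815992 (plus strand), miR-127 at chr6:134328510-134328531 (plus strand, overlapping Rtl1) and miR-183 at chr4:59756106-59756127 (minus strand).

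Each well of the card gives a Ct, the PCR cycle at which fluorescence passes a threshold, so that 1 cycle less stands for a doubling of the template. The level of a miR is given here as −ΔCt, the mean Ct of the reference assays MammU6, snoRNA135 and U87 minus the Ct of the miR, and a difference in level is a log2(fold change). Levels of different miRs were not compared, since each assay has its own efficiency. Averaged over miRs, Ct lay between 27.2 and 30.5 in the 8 arrays, at 29.6 for replicate 1 and 27.8 for replicate 2. Each Sural-SNI array was therefore set against the Sham array that shares its level and number. What a number stands for is not given in the sources used here, and L3-DRG and L4-DRG of a number may come from the same rat, so p-values measure only the spread between these arrays. Of the 1232 Ct values, 14 were above 35. MiR-182 and miR-183, which are markers of sensory neurons, had Ct values from 22.3 to 28.7 in the 8 arrays. Only miRs seen in every array of the study were retained. Detection of these markers in each array was therefore given by that selection and is no check of the tissue.

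Set against Sham, most miRs were slightly higher in Sural-SNI, and no single miR passed the adjusted test. The mean difference was above 0 for 106 miRs and below 0 for 48, and its median over the 154 miRs was 0.15. In a limma fit blocked on DRG level and number, 0 of the 154 miRs (0%) had a Benjamini-Hochberg adjusted p under 0.05, and the smallest adjusted p was 0.546. At an unadjusted p under 0.05 there were 11 miRs (7.14%), where evenly spread p-values would give 7.7, with 8 higher (5.19%) and 3 lower (1.95%) in Sural-SNI. Leaving out a pair of arrays gave 6 miRs without replicate 1 of L3-DRG, 7 without replicate 2 of L3-DRG, 3 without replicate 1 of L4-DRG and 12 without replicate 2 of L4-DRG. Without the block there were 0 miRs with the DRG level as a covariate and 1 with no covariate. Sural-SNI lay above its Sham array in 4 of 4 pairs for 16 miRs (10.4%) and below it in 4 of 4 for 7 (4.55%). The 95% confidence interval of a difference, without adjustment for the number of miRs, had a median half-width of 0.67. At that half-width a smaller difference could not be told from 0 with 4 pairs. No larger difference passed the adjusted test either.

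The difference of all miRs was not the same in the 4 pairs. In L3-DRG the median over miRs was 0.43 in replicate 1 and 0.28 in replicate 2, and in L4-DRG it was −0.07 in both replicates. Of the 154 miRs, 116 and 102 were above Sham in the L3-DRG pairs, and 66 and 68 in the L4-DRG pairs. The mean of the 4 medians was 0.14 ± 0.25 (SD, n = 4), and the exact two-sided sign-flip permutation test gave p = 0.5, where 4 pairs cannot go below 0.125. Across miRs, the differences of any pair of arrays were only weakly related to those of another, with r from −0.27 to 0.17 over 6 combinations.

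**Figure D1:**
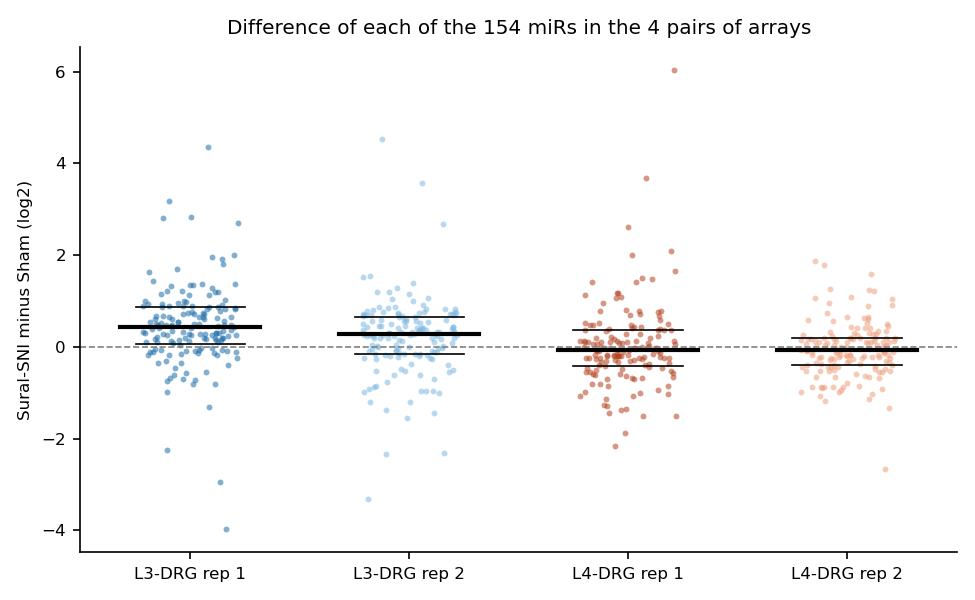
Difference in level between Sural-SNI and Sham (log2, vertical axis) of each of the 154 miRs in each pair of arrays; thick lines are medians and thin lines quartiles over miRs. The medians are 0.43 and 0.28 in L3-DRG and −0.07 in both L4-DRG pairs, and single miRs reach 6.04 and −3.98.

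In raw Ct the reference assays differed between the groups, and so did the average miR. For Sural-SNI minus Sham, the Ct averaged over miRs changed by −0.79 and −0.32 cycles in L3-DRG and by −0.46 and −0.16 in L4-DRG. MammU6, a spliceosomal RNA, had a Ct lower in Sural-SNI by 0.07 and 0.24 cycles in the L3-DRG pairs and by 0.15 and 0.40 in the L4-DRG pairs. For snoRNA135 the Ct was lower by 0.54 and 0.17 in L3-DRG and by 0.53 and 0.16 in L4-DRG. U87, also a small nucleolar RNA, changed by −0.41 and 0.06 cycles in L3-DRG and by −0.63 and −0.12 in L4-DRG. With MammU6, snoRNA135 or U87 alone as the reference, the median over all miRs was 0.22, 0.08 and 0.16, against −0.00 with the average miR of an array. The split of the unadjusted calls moved with it, from 8 higher and 3 lower to 6 and 5 with snoRNA135 alone and 5 and 10 when the average miR of the array was the reference.

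MiR-325 had the most even difference of the comparison and the smallest p. Its −ΔCt in Sham was −8.08 and −8.18 in L3-DRG and −7.41 and −8.34 in L4-DRG (replicates 1 and 2 in this order, here and below), and in Sural-SNI it was −7.32, −7.37, −6.63 and −7.61. The 4 differences of 0.76, 0.80, 0.78 and 0.74 averaged 0.77 ± 0.03 (SD, n = 4), a 1.70-fold higher level if each cycle doubles the product. For comparison, the median SD of the 4 differences over all miRs was 0.55. Limma gave an unadjusted p = 0.00582 and an adjusted p of 0.546. MiR-325 was measured late, at Ct values from 31.5 to 34.3 in the Sural-SNI and Sham arrays. Its unadjusted p was under 0.05 in 13 of the 15 alternative settings in which it could be computed. The same tally was 11 of 14 for miR-130a, 10 of 16 for miR-19a and miR-133b, 10 of 15 for miR-142-3p, 9 of 16 for miR-431, 7 of 15 for miR-340-5p, 7 of 16 for the rat assay of miR-1, 5 of 15 for miR-200c and 4 of 16 for miR-222. With a pair left out, it was 0 of 4 for miR-222 and for the rat assay of miR-1, and 4 of 4 for miR-325. Among the 15 settings, the unadjusted p of miR-325 was above 0.05 only without the replicate block. In limma it was 0.0676 with the DRG level as a covariate and 0.0534 with no covariate. These miRs were named for a small p on these same arrays, so the tallies are no independent support.

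MiR-130a, which has been linked to blood vessel growth, had the largest mean difference among the miRs that were higher in 4 of 4 pairs. Its −ΔCt was −10.11, −5.87, −8.96 and −6.38 in Sham and −8.10, −5.67, −7.83 and −5.34 in Sural-SNI. Replicate 2 was above replicate 1 in each group and level, by more than the groups differed, so the levels overlapped. The differences of 2.01, 0.20, 1.13 and 1.04 averaged 1.09 ± 0.74 (SD, n = 4; unadjusted p = 0.0163 and adjusted p = 0.546 in limma). MiR-130a was measured late, at Ct values from 29.2 to 36.3 in the Sural-SNI and Sham arrays, and passed neither of the Ct limits. The highest Ct was that of replicate 1 of L3-DRG in Sham, the pair with the largest difference. Leaving out a pair gave means from 0.79 to 1.39, with the lowest when that pair was left out. Its seed relative miR-130b had a mean difference of 0.94 ± 1.80 (SD, n = 4) and was higher in 3 of 4 pairs, so the spread between pairs exceeded the difference.

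MiR-222, which is transcribed with miR-221 and is known to rise in DRG after sciatic nerve transection, was higher by a similar amount at both levels. Its −ΔCt was −1.75, −1.41, −1.65 and −1.03 in Sham and −1.31, −0.75, −1.22 and −0.37 in Sural-SNI. The differences were 0.44, 0.66, 0.43 and 0.66, with a mean of 0.55 ± 0.13 (SD, n = 4; unadjusted p = 0.0267 and adjusted p = 0.546 in limma). Because the replicates differed, the levels of the groups overlapped, and the difference appears only within pairs. Of the 4 miRs of the axotomy-linked list, miR-222 and miR-132 were measured, with a list median of 0.68 against 0.15 over all miRs. MiR-132, an activity-regulated neuronal miR, had differences of 1.33, 0.58, 1.65 and −0.31 and was higher in 3 of 4 pairs.

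MiR-431 is a product of the imprinted Dlk1-Dio3 region that is known to promote axon growth of cultured sensory neurons. Its −ΔCt was −4.61, −3.41, −2.86 and −2.49 in Sham and −3.38, −2.64, −2.50 and −2.19 in Sural-SNI. The difference was 1.22 and 0.77 in L3-DRG and 0.36 and 0.30 in L4-DRG, with a mean of 0.66 ± 0.43 (SD, n = 4; unadjusted p = 0.0330 and adjusted p = 0.546 in limma). Among the 25 measured miRs of that region 1, miR-431, was higher in 4 of 4 pairs, against 10.4% of all miRs. None of the 25 was lower in 4 of 4, against 4.55% of all miRs. The median of the 25 was 0.06, against 0.15 over all miRs (−0.09 against −0.00 with the average miR as the reference), and their mean differences ran from −0.84 to 0.82.

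MiR-19a belongs to the miR-17 cluster, which with its paralogs is known for promoting proliferation. Its −ΔCt was −5.30, −4.84, −5.46 and −3.33 in Sham and −4.63, −3.98, −4.27 and −3.14 in Sural-SNI, which gives a mean difference of 0.73 ± 0.42 (SD, n = 4; unadjusted p = 0.0230 and adjusted p = 0.546 in limma). MiR-17 was higher by 0.86, 0.71, 0.48 and 0.04, and miR-19b, which differs from miR-19a at a single base, by 0.30, 0.30, 0.11 and 0.20. Of 13 miRs in the list of these clusters 9 were measured, 8 had a mean difference above 0, and 5 (miR-17, miR-19a, miR-19b, miR-92a and miR-106a) were higher in 4 of 4 pairs, against 10.4% of all miRs. The number higher in 4 of 4 was 3 with MammU6 alone, 3 with U87 alone, 5 with snoRNA135 alone and 4 with the average miR as the reference. The list median was 0.47, against 0.15 over all miRs. These members are not independent, since miR-17, miR-19a, miR-19b and miR-92a have loci in 1 cluster on chromosome 15, and the mature products of Mir17 and Mir106a are identical in the rat.

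In the seed families of miR-17 and miR-16 the means lay on both sides of 0. With the seed of miR-17, miR-20b had a mean difference of −0.79 ± 1.77 (SD, n = 4) and miR-93 one of 0.55 ± 3.09 (SD, n = 4), both carried by single pairs: miR-93 was −2.94 and 4.54 in the L3-DRG pairs. With the seed of miR-16, a repressor of cell cycle genes, miR-15b was lower in 3 of 4 pairs at −0.61 ± 1.08 (SD, n = 4), although both lie in Smc4. MiR-16 was higher by 0.71, 0.50, 0.36 and 0.28, with levels of 1.98 to 2.35 in Sham and 2.51 to 2.72 in Sural-SNI that did not overlap. Levels did not overlap between the groups for 3 miRs (1.95%), namely miR-16, miR-200c and miR-133b. The 5 measured miRs of the miR-15/16 family had a median of 0.15, that of all miRs.

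MiR-142-3p is confined largely to blood cells, and its −ΔCt was −7.81, −4.97, −6.60 and −4.02 in Sham and −5.88, −4.81, −5.42 and −3.50 in Sural-SNI. The differences of 1.93, 0.16, 1.18 and 0.51 averaged 0.95 ± 0.78 (SD, n = 4; unadjusted p = 0.0328 and adjusted p = 0.546 in limma). In RNA from a whole DRG, the number of cells of a type and the level of a miR per cell cannot be told apart. The other measured leukocyte miRs differed less: miR-223, a myeloid miR, by 0.36 ± 0.59, miR-146a by 0.29 ± 0.64, miR-342-3p by 0.21 ± 0.29, miR-150 by 0.16 ± 0.20 and miR-155 by 0.01 ± 0.26 (SD, n = 4 each). All 6 measured of 8 in the list had a mean above 0, as did 106 of all 154 miRs. Of these 6, 1 was higher in 4 of 4 pairs, against 10.4% of all miRs. The list median was 0.25, against 0.15 over all miRs. With the average miR as the reference 5 had a mean above 0, against 76 of all 154 miRs. The median was then 0.10, against −0.00 over all miRs. The summed level of the 6 leukocyte miRs (log2 of the sum of 2 to the power of −ΔCt) takes their assays as equally efficient. It was 1.97 to 2.47 in Sham and 2.40 to 2.60 in Sural-SNI. The part of leukocytes in the other differences was not tested. MiR-486, the 1 measured miR of 3 in the red blood cell list, had differences of 0.78, −0.27, 1.41 and −0.43.

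MiR-200c, an epithelial miR that represses Zeb1 and Zeb2, was −6.39, −6.38, −6.95 and −6.93 in Sham and −5.90, −6.13, −6.22 and −6.02 in Sural-SNI. Every Sural-SNI array was above every Sham array, and the mean difference was 0.59 ± 0.28 (SD, n = 4; unadjusted p = 0.0302 and adjusted p = 0.546 in limma). MiR-203, the other measured miR of 7 in the epithelial list, differed by 0.17 ± 0.53 (SD, n = 4), so that the list median was 0.38. MiR-340-5p had a −ΔCt of −7.10, −6.29, −7.49 and −5.48 in Sham and −6.09, −5.75, −6.06 and −5.43 in Sural-SNI, a mean difference of 0.76 ± 0.59 (SD, n = 4; unadjusted p = 0.0383 and adjusted p = 0.546 in limma). In replicate 2 of L4-DRG it differed by only 0.05. The 6 others that were higher in 4 of 4 pairs with larger p (miR-28, miR-92a, miR-106a, miR-19b, miR-196c and miR-139-5p) were chosen here after their values were seen.

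**Figure D2:**
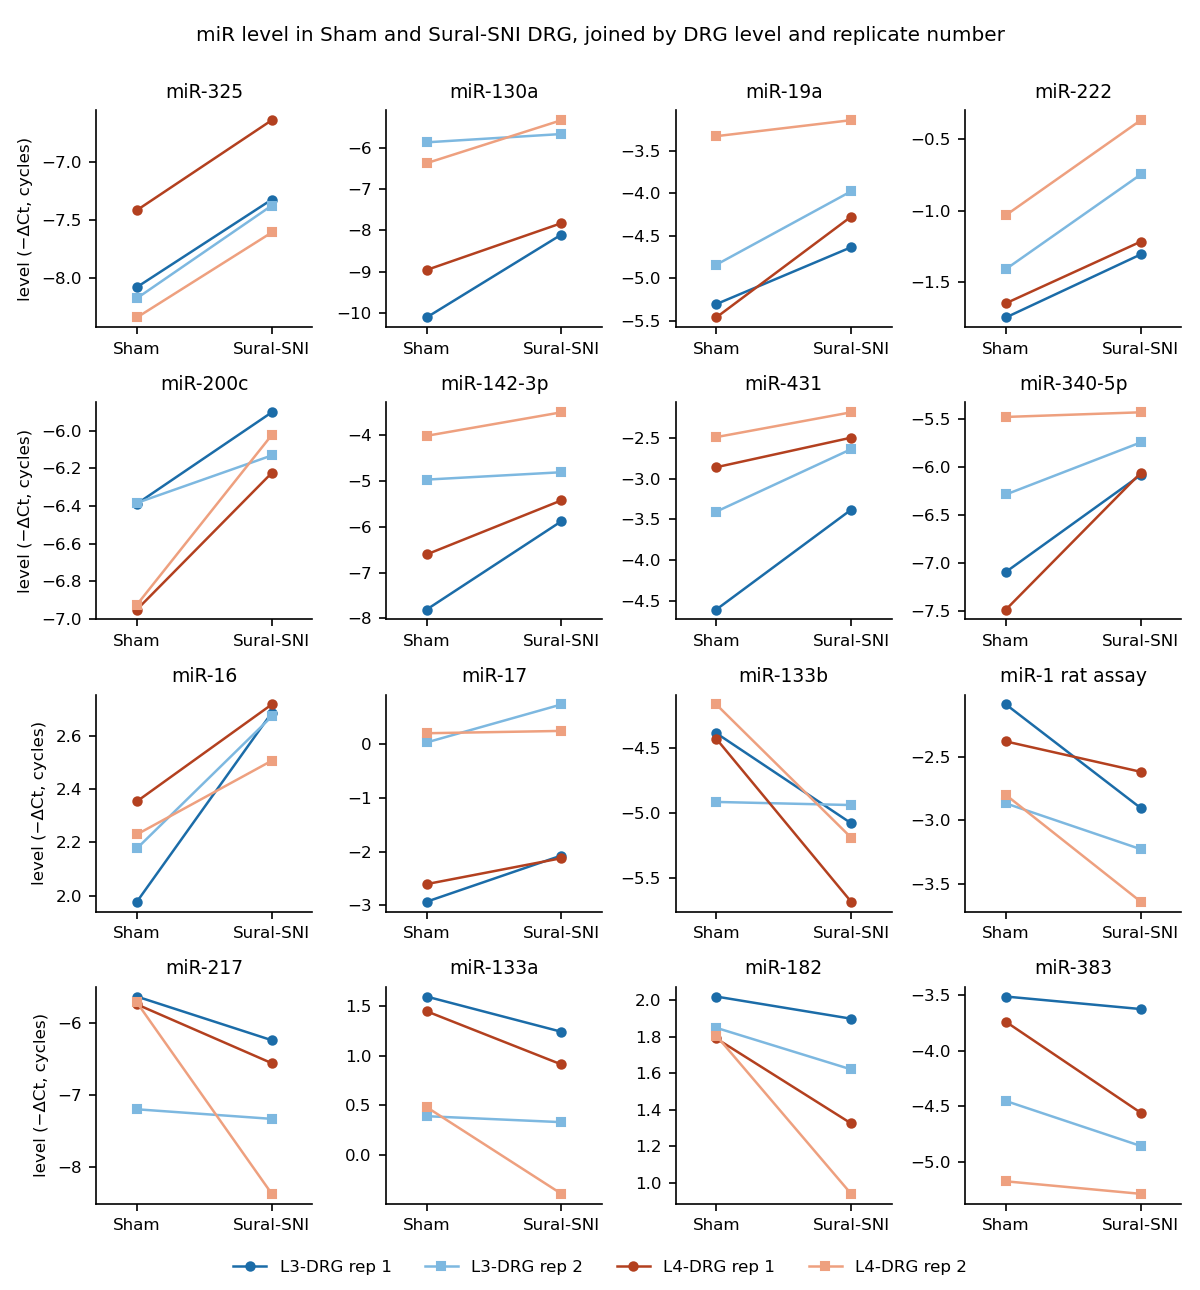
Level (−ΔCt, cycles; each panel has its own scale) of 16 miRs in Sham and Sural-SNI, with a line for each pair of arrays that share DRG level and number. In the first 10 panels all 4 lines go up, and in the last 6 all 4 go down; in miR-200c, miR-16 and miR-133b the 4 Sural-SNI points do not overlap the 4 Sham points.

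The miRs of skeletal muscle were lower in Sural-SNI in every pair. MiR-133b, a muscle miR also described in midbrain neurons, had a −ΔCt of −4.39, −4.92, −4.43 and −4.16 in Sham and −5.08, −4.94, −5.68 and −5.19 in Sural-SNI. Its differences of −0.69, −0.02, −1.26 and −1.03 averaged −0.75 ± 0.54 (SD, n = 4; unadjusted p = 0.0320 and adjusted p = 0.546 in limma), a level 0.594 times that of Sham. All Sural-SNI arrays were below all Sham arrays, although the pair of replicate 2 of L3-DRG hardly differed.

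MiR-1, the main miR of striated muscle, was read by 2 assays, designed for rat and mouse. The rat assay read −2.09, −2.87, −2.38 and −2.80 in Sham and −2.90, −3.23, −2.62 and −3.64 in Sural-SNI, a difference of −0.56 ± 0.31 (SD, n = 4; unadjusted p = 0.0390 and adjusted p = 0.546 in limma). The mouse assay gave differences of −0.08, −0.09, −1.34 and −0.18, so its mean of −0.42 ± 0.62 (SD, n = 4; unadjusted p = 0.194 in limma) came mostly from replicate 1 of L4-DRG. In that pair the rat assay differed by only −0.24. MiR-133a, which shares its seed with miR-133b and is transcribed with miR-1, differed by −0.35, −0.06, −0.54 and −0.87 (unadjusted p = 0.0837 in limma).

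The 4 muscle assays (miR-1 by both assays, miR-133a and miR-133b, without miR-206 of the list) had a median of −0.51 against 0.15 over all miRs, and all 4 were lower in 4 of 4 pairs, against 4.55% of all miRs. These assays are not independent, since miR-1 enters by both of its assays and miR-133a is transcribed with it. MiR-133a and miR-133b differ by 1 base. The summed level of the 4 muscle assays, which takes them as equally efficient, was 0.59 to 1.73 in Sham and −0.17 to 1.35 in Sural-SNI. The 4 means were below 0 whether MammU6, snoRNA135, U87 or the average miR was the reference, although a change of reference moves the means of all miRs by the same small amount. The number lower in 4 of 4 pairs was 2 with MammU6 alone and 1 with U87 alone. Whether muscle tissue came along with the DRG was not tested. The vascular smooth muscle miRs miR-143 and miR-145 had means of −0.17 ± 0.55 and −0.19 ± 0.38 (SD, n = 4 each) and were lower than Sham in 3 of 4 pairs, all but replicate 2 of L4-DRG. The endothelial miR-126-3p and miR-126-5p had a median of −0.03.

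Among the other miRs lower in 4 of 4 pairs, miR-217, known mainly from the pancreas, differed by −0.61, −0.13, −0.82 and −2.66, so replicate 2 of L4-DRG gave most of its mean of −1.05 ± 1.11 (SD, n = 4). Without that pair its mean was −0.52. MiR-182, of the sensory neuron cluster with miR-183 and miR-96, was 2.02, 1.85, 1.79 and 1.81 in Sham and 1.90, 1.62, 1.33 and 0.94 in Sural-SNI. Its differences of −0.12 and −0.23 in L3-DRG and −0.47 and −0.87 in L4-DRG averaged −0.42 ± 0.33 (SD, n = 4; unadjusted p = 0.102 in limma). MiR-383 differed by −0.11, −0.40, −0.82 and −0.11. MiR-685 also had an unadjusted p under 0.05 (0.0382 in limma), with a mean of −0.79, but was lower in only 3 of 4 pairs.

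**Figure D3:**
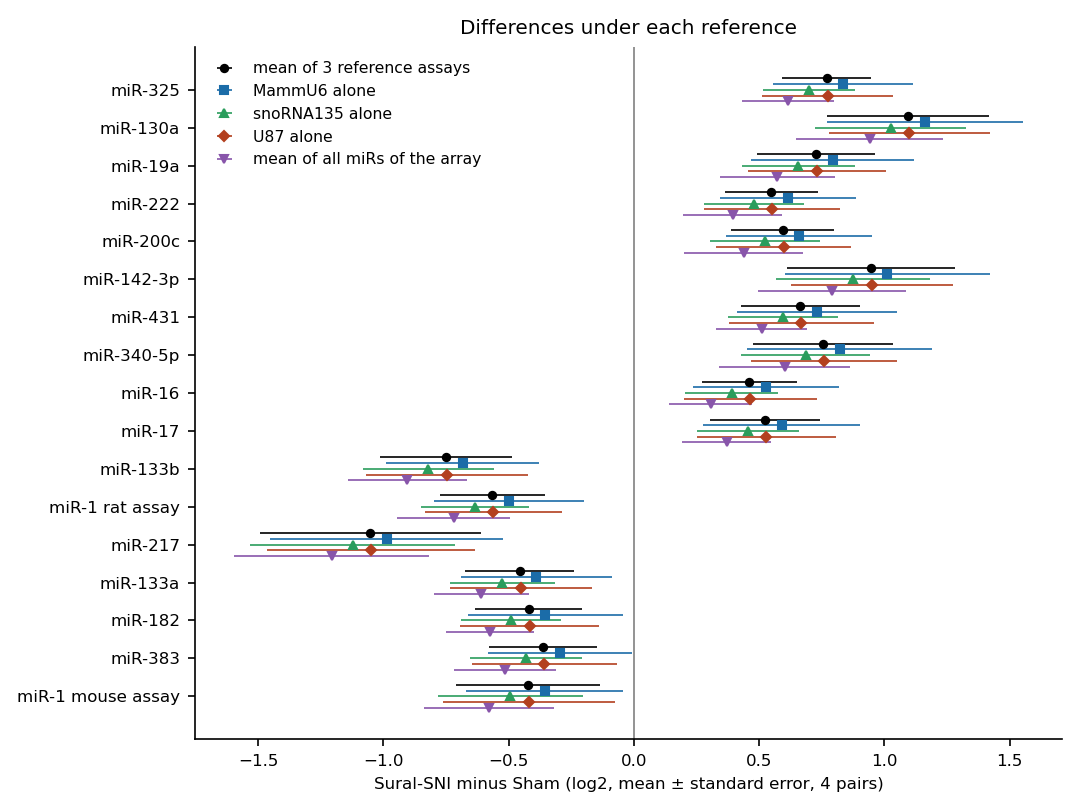
Mean difference between Sural-SNI and Sham (log2, horizontal axis; bars are the standard error of the limma fit, 4 pairs) of the 17 miRs with the same sign in 4 of 4 pairs and the smallest p, under 5 references. A change of reference moves every mean by the same amount, to lower values with the mean of all miRs. No mean crosses 0, but these moves are smaller than the means of miRs chosen in this way.

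The lists fell on both sides of the median of all miRs, 0.15. For miRs of glia, miR-338-3p (0.54 ± 0.72, SD, n = 4) and miR-204 (−0.00 ± 0.55, SD, n = 4), the median was 0.27. The 4 stromal miRs of 7 (miR-29a, miR-29c, miR-199a-3p and miR-214) had a median of 0.17, and all of their differences were smaller than their spread. Of the let-7 family, which restrains proliferation, 9 of 9 were measured. Of these, 8 had a mean above 0, as did 106 of all 154 miRs. The family median was 0.20. None went the same way in 4 of 4 pairs, against 10.4% of all miRs higher and 4.55% lower. With the average miR as the reference 5 had a mean above 0, against 76 of all 154 miRs. The median was 0.22 for the miR-23/24/27 group (4 of 5 measured), 0.43 for miR-99b, miR-125a-5p and miR-125b-5p, 0.16 for the HOX cluster miRs (3 of 6), 0.06 for miR-181a and −0.00 for the miR-30 family (5 of 5). Of 12 neuronal miRs 5 were measured, with a median of −0.08. The list of 9 miRs that the study chose on these arrays, for Tibial-SNI against Sural-SNI, had a median of −0.18 over 10 assays. In 4 of 4 pairs 2 assays were higher and 3 lower, against 10.4% and 4.55% of all miRs. This list is not independent evidence of direction.

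**Figure D4:**
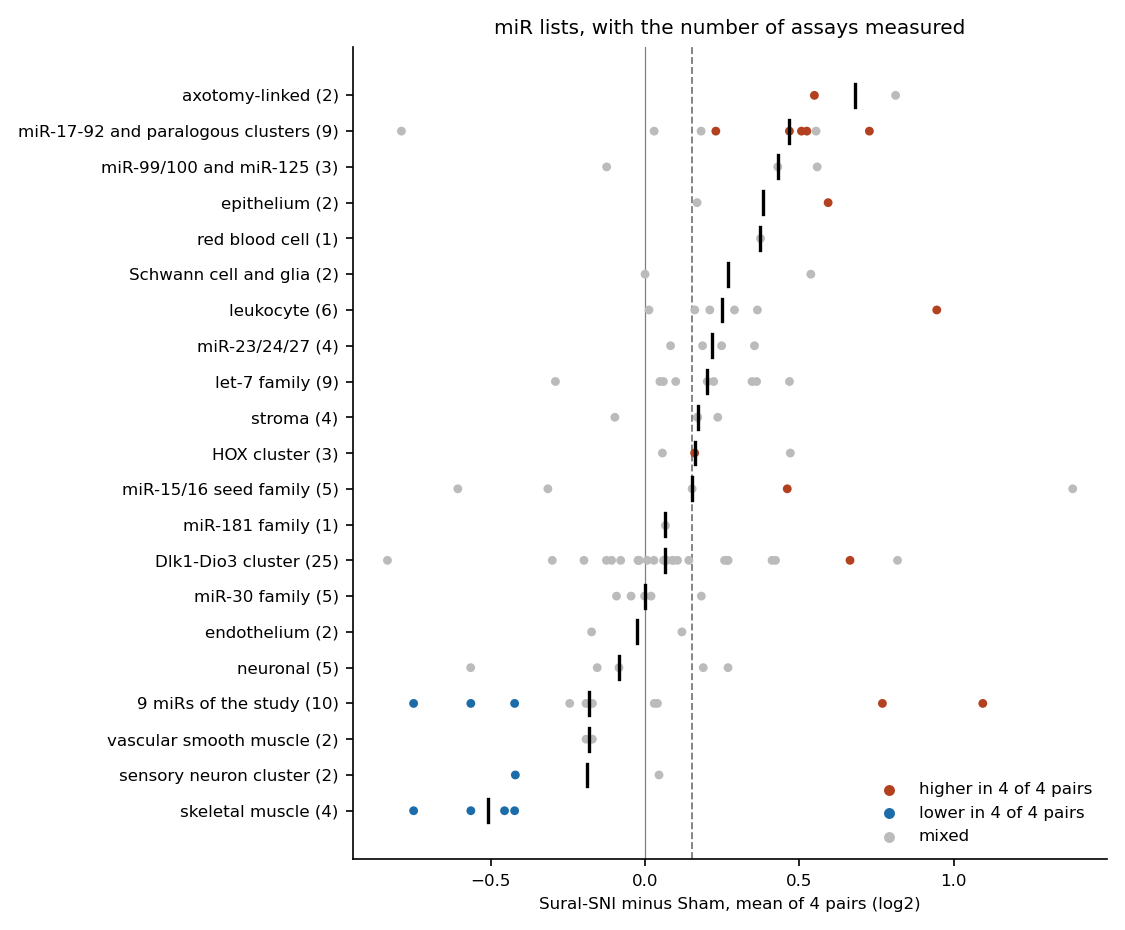
Mean difference between Sural-SNI and Sham (log2, 4 pairs) of each measured miR by list, with the number of assays in parentheses; black ticks are list medians and the dashed line the median of all 154 miRs, 0.15. The 4 skeletal muscle assays all lie below 0, and the list of the miR-17 cluster and its paralogs holds 5 members higher in 4 of 4 pairs.

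The difference between Sural-SNI and Sham was lower in L4-DRG than in L3-DRG for 118 of the 154 miRs, with a median over miRs of 0.33 in L3-DRG and −0.04 in L4-DRG. In limma on the 4 pair differences, 0 miRs (0%) had an adjusted p under 0.05 and 13 (8.44%) an unadjusted p under 0.05, all 13 with the lower difference in L4-DRG. Both L3-DRG pairs were above 0 and both L4-DRG pairs below 0 for 25 miRs (16.2%), and the opposite held for 0 miRs (0%). Taking the average miR of the array as the reference removes the shift between pairs. Under it, 3 of the 154 miRs had an unadjusted p under 0.05, namely miR-34a, miR-127 and miR-183. Evenly spread p-values would give 7.7, and the smallest adjusted p was 0.934 in limma.

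MiR-34a, a target of p53 that is known to slow the cell cycle, had the largest of these differences. Its −ΔCt in L3-DRG was −6.09 and −2.30 in Sham and −3.40 and −1.26 in Sural-SNI. In L4-DRG it was −3.61 and −0.80 in Sham and −5.11 and −1.75 in Sural-SNI. It was thus higher in Sural-SNI by 2.69 and 1.04 in L3-DRG and lower in L4-DRG, at −1.5 and −0.95, and L4-DRG minus L3-DRG was −3.09 (standard error 0.69; unadjusted p = 0.0113 and adjusted p = 0.543 in limma). Without replicate 2 of L3-DRG the adjusted p of miR-34a was 0.0456, and without replicate 1 of L3-DRG it was miR-93 that had an adjusted p of 0.0449; each of these fits has 1 pair left at L3-DRG.

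MiR-127, which lies opposite Rtl1 in the Dlk1-Dio3 region, was −4.33 and −2.31 in Sham and −3.47 and −1.65 in Sural-SNI in L3-DRG. In L4-DRG it was −3.69 and −1.47 in Sham and −4.76 and −2.02 in Sural-SNI, so the differences were 0.85 and 0.67 in L3-DRG and −1.06 and −0.55 in L4-DRG. L4-DRG minus L3-DRG was −1.56 (standard error 0.36; unadjusted p = 0.0128 and adjusted p = 0.543 in limma). Of the 25 Dlk1-Dio3 miRs, 23 had the lower difference in L4-DRG, as did 118 of all 154 miRs. Members with an unadjusted p under 0.05 were 3 (miR-127, miR-376c and miR-667), against 8.44% of all miRs.

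MiR-183 of the sensory neuron cluster was −2.44 and −2.81 in Sham and −1.77 and −1.93 in Sural-SNI in L3-DRG, and −2.06 and −2.38 in Sham against −2.56 and −3.25 in Sural-SNI in L4-DRG. The differences of 0.67, 0.88, −0.50 and −0.87 gave L4-DRG minus L3-DRG of −1.46 (standard error 0.34; unadjusted p = 0.0132 and adjusted p = 0.543 in limma). The neuronal list had the same order: 4 of its 5 measured miRs (miR-9, miR-137, miR-218 and miR-384-5p) were above Sham in both L3-DRG pairs and below it in both L4-DRG pairs, against 16.2% of all miRs. Its median was 0.56 in L3-DRG and −0.44 in L4-DRG, and 0.23 and −0.42 with the average miR as the reference. MiR-9, which acts in neural differentiation, differed by 0.73, 0.75, −0.19 and −0.53.

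In the miR-30 family, all 5 members had the lower difference in L4-DRG, as did 118 of all 154 miRs, and 4 were above Sham in both L3-DRG pairs and below it in both L4-DRG pairs, against 16.2% of all miRs. Its median was 0.25 in L3-DRG and −0.38 in L4-DRG, but −0.08 and −0.36 with the average miR as the reference. Of the 2 measured glial miRs, miR-204 differed by 0.48, 0.45, −0.33 and −0.60, and miR-338-3p by 0.49, 0.45, 1.49 and −0.27. The remaining miRs with an unadjusted p under 0.05 were miR-26b, miR-27b, miR-103, miR-301a and miR-331-3p, which with miR-204, miR-218, miR-376c and miR-667 are named after their values were seen. In the other direction, miR-214, miR-15b and the rat assay of miR-351 had the smallest p, with L4-DRG minus L3-DRG of 0.64, 1.32 and 0.80 (unadjusted p = 0.136, 0.151 and 0.171 in limma).

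**Figure D5:**
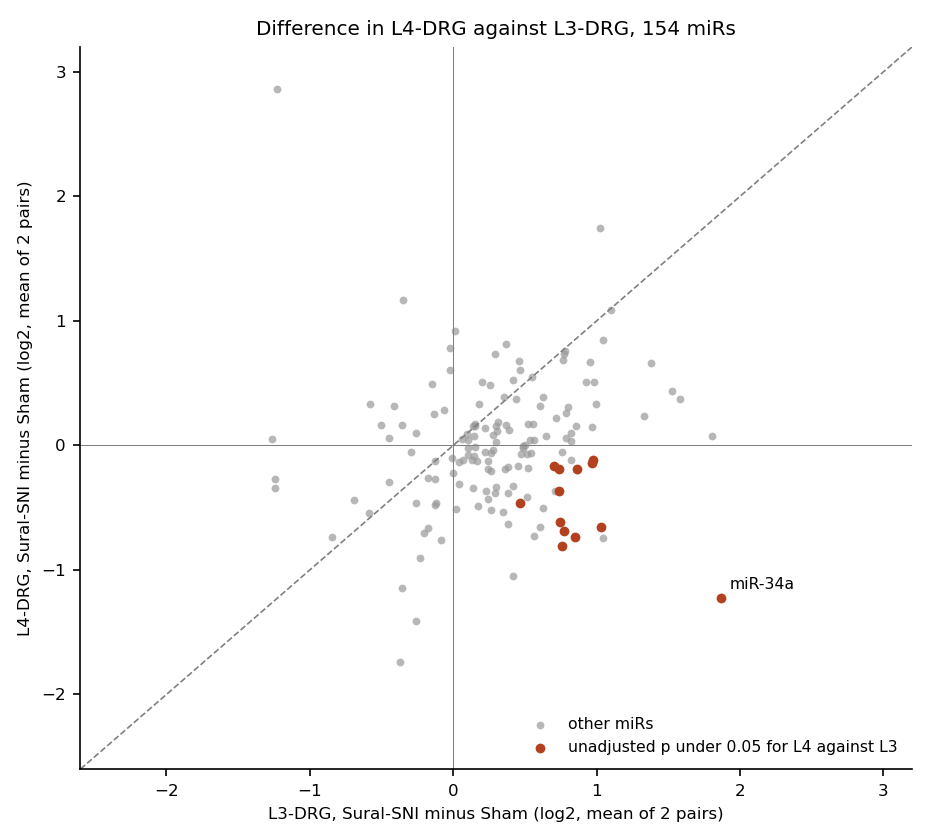
Mean difference between Sural-SNI and Sham (log2) in L4-DRG (vertical axis) against L3-DRG (horizontal axis), 2 pairs each, for the 154 miRs; on the dashed line both are equal. The 13 miRs with an unadjusted p under 0.05 (red) all lie below the line, and miR-34a, at 1.87 and −1.22, is farthest from it among them.

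Sural-SNI was set against Tibial-SNI, paired in the same way, to see which of these miRs differed between the injuries. Such a difference can come from a change against Sham in either injury. Of the 154 miRs, 0 (0%) had an adjusted p under 0.05 and 6 (3.9%) had an unadjusted p under 0.05 in limma. Sural-SNI was above Tibial-SNI in 4 of 4 pairs for 8 miRs (5.19%) and below it in 4 of 4 for 14 (9.09%). MiR-325 was higher in Sural-SNI than in Tibial-SNI by 1.81, 1.58, 1.3 and 1.25, a mean of 1.49 with a standard error of 0.20 (unadjusted p = 4.6e-04 and adjusted p = 0.0707 in limma). MiR-325 did not pass a Ct limit of 35 in all arrays of this comparison, so its level in Tibial-SNI was read late. Under that limit 138 miRs remained, and the smallest adjusted p was 0.72 in limma, for miR-139-3p. For miR-133b the difference was −1.5, −0.48, −3.64 and −0.80, largest in replicate 1 of L4-DRG, with a mean of −1.61 with a standard error of 0.56 (unadjusted p = 0.0311 and adjusted p = 0.776). The other 4 were miR-139-3p, miR-143, miR-207 and miR-574-3p, none of which had the same sign against Sham in 4 of 4 pairs. For miR-130a, miR-19a, miR-200c, miR-222, miR-142-3p, miR-431, miR-340-5p and the rat assay of miR-1, the unadjusted p between the injuries was above 0.05. This does not show that the injuries act alike. For miR-222 the difference between the injuries was −0.13 and for miR-19a 0.15. Against Sham, Sural-SNI differed by 0.77 for miR-325 and −0.75 for miR-133b, less than against Tibial-SNI. On average Tibial-SNI thus lay below Sham for miR-325 and above it for miR-133b.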

How the data were processed

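RNA of single DRG was run by the authors on TaqMan rodent microRNA cards for 40 cycles, with no limit set on Ct. MiRs seen in each of the 12 arrays were retained, and the deposited Ct values are not normalized. A table of fold changes against Sham that the authors deposited holds their own comparison and was not used. Since a Ct is no count of molecules, precision is limited by the 4 arrays of a group.

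Arrays were grouped by their labels. The 4 MammU6 wells were averaged before the mean of MammU6, snoRNA135 and U87 was taken. Sural-SNI was compared with Sham, and with Tibial-SNI, in limma 3.58.1 (lmFit and eBayes, R 4.3.3; two-sided, Benjamini-Hochberg adjustment over the 154 miRs) with DRG level and number as a block. L4-DRG was set against L3-DRG on the 4 pair differences. The study set each DRG against Sham of its level and compared groups unpaired. Pairing by number was chosen here. Deviations from the group mean correlated across miRs with r from 0.58 to 0.81 in the 4 pairs of the same level and number, and from −0.79 to −0.56 in the 8 of different number.

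The text names up to 10 miRs a direction with the smallest p among those with the same sign in 4 of 4 pairs, up to 3 a direction for L4-DRG against L3-DRG, the 9 miRs the study chose, and members of the lists. The miRs and lists were chosen with earlier results of these data known. The marker lists were of leukocytes, red blood cells, skeletal and vascular smooth muscle, endothelium, glia, stroma and epithelium, and the other lists were miR families and clusters. Alternatives were other references, Ct limits of 35 and 32, no replicate block, all 12 arrays in one fit, levels averaged first, no moderation of the variance, a variance trend, and leaving out each pair. The median of the MammU6 wells, which spread from 17.9 to 19.3 on replicate 2 of L3-DRG Sham, was added after seeing the data. The fits were tested on simulated data. Sequences were read with Python 3.11.15 and plots drawn with matplotlib 3.10.9.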

Additional observations from a re-analysis of the deposited data

Results flagged for a closer look

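The mouse assay of miR-1 stood apart in a single pair: in replicate 1 of L4-DRG it differed by −1.34 between Sural-SNI and Sham, and by −0.18 to −0.08 in the other 3 pairs. Its gap to the nearest pair was 0.923 of the whole range, above the 95% limit of Dixon's test for 4 values. Of the 28 named miRs and 3 reference assays tested in this way 1 was marked, and chance alone marks about 5% of groups.

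The difference between Sural-SNI and Sham went in opposite directions in L3-DRG and L4-DRG for 3 named miRs. They were named for having the smallest p in this same comparison, so the flag adds no separate support. Of all 154 miRs, 25 (16.2%) were above Sham in both L3-DRG pairs and below it in both L4-DRG pairs. L4-DRG minus L3-DRG was −3.09 for miR-34a, −1.56 for miR-127 and −1.46 for miR-183, with unadjusted p of 0.0113, 0.0128 and 0.0132 and an adjusted p of 0.543 for each in limma on the 4 pair differences.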

How the results depend on the processing

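With 4 pairs, limma called 0 miRs after adjustment in the comparison with Sham under every alternative but the one-sample test without moderation, which called 1 (miR-325, adjusted p = 0.00215). The number with an unadjusted p under 0.05 was 11, and was 5 with MammU6 alone, 7 with a Ct limit of 32, and 3 to 12 when a pair was left out. Without the replicate block it was 0 with the DRG level as a covariate and 1 (miR-133b) with no covariate. For L4-DRG against L3-DRG the 13 miRs became 4 with MammU6 alone, 6 with snoRNA135 alone, 3 with the mean of all miRs, 0 without the replicate block, and 4 to 16 when a pair was left out, which leaves 1 pair at a level that is assumed to vary like the other. Sural-SNI against Tibial-SNI gave 6, and 2 without the replicate block and 3 to 15 without a pair. The cause was not tested.

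Over 28 named miRs and their alternatives, 335 of 438 values kept their direction and side of the threshold, 68 lost and 18 gained an unadjusted p under 0.05, and 17 values of 6 miRs changed sign. None of the 6 had an unadjusted p under 0.05. MiR-127 was 0.0436 with MammU6 alone. With snoRNA135 alone, miR-183 was −0.0250, miR-193b −0.0300 and miR-191 −0.0402, and miR-191 was −0.00325 with snoRNA135 and U87. With the mean of all miRs, miR-183 was −0.11, miR-193b −0.11 and miR-191 −0.12. Leaving out a pair gave −0.47 to 0.93 for miR-34a, −0.23 to 0.35 for miR-183, −0.42 to 0.0229 for miR-143, −0.0575 to 0.0959 for miR-193b, −0.10 to 0.19 for miR-191 and −0.32 to 0.32 for miR-127. The sign-flip permutation of a single miR cannot go below p = 0.125 with 4 pairs and was not used.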

Other observations

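A few miRs outside the rule had single pairs far from the others and were singled out after their values were seen. MiR-337-3p differed by −3.98 and 1.53 in L3-DRG and by 6.04 and −0.31 in L4-DRG, at Ct values up to 39.1, the highest of the 8 arrays. MiR-15a differed by 4.37, −2.32, 2.61 and 0.89, and miR-20b by −3.31 in replicate 2 of L3-DRG alone.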
